A study of Homo sapiens with 15 samples.

Results

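The vitamin D receptor, its retinoid X receptor partners and the enzymes that make and remove vitamin D hormone were described by 7 genes, taken by symbol from the 19612 gene symbols of the count table. They are VDR, RXRA, RXRB, CYP24A1, CYP27B1, CYP2R1, and CYP27A1, and all 7 were found. RNA was sequenced from H1975, a human lung adenocarcinoma cell line with the EGFR mutations T790M and L858R, and from H1975–OR, one line derived from it by long culture in osimertinib, an inhibitor of mutant EGFR, and kept in 500 nM of the drug. There were 5 groups of 3 libraries, lettered a, b, and c, so that Sample 3a is library a of group 3. H1975 received vehicle (group 1), and H1975–OR received vehicle (group 2), 1,25(OH)2D3 at 100 nM (group 3), osimertinib at 500 nM (group 4), or the pair of agents at those doses (group 5). Cells were dosed at 0, 48, and 92 h and collected after 96 h, in medium with charcoal-stripped serum, so that vehicle-treated H1975–OR cells were without osimertinib for that time. Per the study's methods, the RNA of the vehicle and 1,25(OH)2D3 groups came from 3 separate passages of each culture line. For groups 4 and 5 the methods do not say whether the libraries came from separate passages. The p-values measure the spread between the libraries of a group.

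1,25(OH)2D3, or calcitriol, acts by binding VDR, a nuclear receptor that pairs with an RXR and sits on DNA at response elements, commonly a spaced repeat of a short half-site. The hormone is made in steps. CYP2R1, and to some extent CYP27A1, add the first hydroxyl group to vitamin D, and CYP27B1 adds the one that makes it active. CYP24A1 starts the breakdown of the hormone and is itself among the best known genes switched on by VDR, so that its RNA is widely used as a readout of receptor activity.

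In GRCh38, VDR lies on chromosome 12 (47841537 to 47943048, minus strand), RXRA on chromosome 9 (134317098 to 134440585, plus strand), and RXRB on chromosome 6 (33193588 to 33200665, minus strand). CYP24A1 lies on chromosome 20 (54153446 to 54173986, minus strand), CYP27B1 on chromosome 12 (57762334 to 57768986, minus strand), CYP2R1 on chromosome 11 (14877440 to 14892231, minus strand), and CYP27A1 on chromosome 2 (218781749 to 218815293, plus strand). The canonical transcripts have 10 exons for VDR, RXRA, and RXRB, 12 for CYP24A1, 9 for CYP27B1 and CYP27A1, and 5 for CYP2R1. Exons of RXRB overlap those of SLC39A7 on the opposite strand, those of VDR overlap a gene on the opposite strand (ENSG00000205537), those of CYP27B1 overlap METTL1 on the same strand, and those of RXRA overlap MIR4669 on the same strand, so the counts of these 4 members are less certain. CYP24A1, CYP2R1, and CYP27A1 share no exon sequence positions with another annotated gene.

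Promoter sequences of RefSeq (GRCh38.p14) were at hand for 4 of the 7 genes, with 8 starts in all. Both RXRA starts and the CYP27A1 start are shown here, since RXRA stood lowest with both agents and CYP27A1 stood lowest in the groups given 1,25(OH)2D3. Each stretch is the 250 bases before the start, on the strand of the gene, and capitals mark a half-site on either strand, which may be AGGTCA or AGTTCA, or likewise GGGTCA or else GGTTCA. The RXRA stretches lie within the gene and outside its annotated exons, and that of CYP27A1 overlaps 1 of its exons.
RXRA, chr9:134326205-134326454, plus strand: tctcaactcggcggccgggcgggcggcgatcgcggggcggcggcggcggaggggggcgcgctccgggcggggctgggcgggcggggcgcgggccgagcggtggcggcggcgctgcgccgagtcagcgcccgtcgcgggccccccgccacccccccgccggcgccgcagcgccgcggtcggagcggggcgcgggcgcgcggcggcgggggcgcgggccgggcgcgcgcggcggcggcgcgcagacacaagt
RXRA, chr9:134379045-134379294, plus strand: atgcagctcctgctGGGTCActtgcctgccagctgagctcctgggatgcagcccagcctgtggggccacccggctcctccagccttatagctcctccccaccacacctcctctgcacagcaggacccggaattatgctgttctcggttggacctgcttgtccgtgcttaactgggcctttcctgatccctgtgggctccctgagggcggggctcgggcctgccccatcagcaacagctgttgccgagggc
CYP27A1, chr2:218781897-218782146, plus strand: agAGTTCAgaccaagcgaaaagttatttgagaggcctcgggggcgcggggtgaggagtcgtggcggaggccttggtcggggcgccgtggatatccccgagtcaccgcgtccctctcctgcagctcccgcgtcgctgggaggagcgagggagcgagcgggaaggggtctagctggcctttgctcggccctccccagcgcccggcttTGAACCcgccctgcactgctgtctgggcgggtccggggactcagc

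The first RXRA stretch held 0 half-sites, the second held 1, and the CYP27A1 stretch held 2. Of all 35114 promoters, 33.8% held at least 1 half-site. A direct repeat of the half-site with 3 bases between the copies, allowing at most 2 mismatches over both copies, was in 14.3% of all promoters and in none of the 8 stretches of RXRA, RXRB, CYP2R1, and CYP27A1 (0 of 8). Without mismatches it was in 0.0655% of all promoters.

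The estimated counts per library summed to between 4378030 and 6140120, so that 3 counts, the floor for a gene with none observed, correspond to between 0.489 and 0.685 CPM, counts scaled to a common library size. Levels are given as CPM scaled by TMM, and floors cover counting error only. Sample 3a stood apart from its group, with a correlation across 12627 genes of 0.917 and 0.907 with Samples 3b and 3c, which correlated at 0.964, and it was left out of the tests and means. The lung and epithelial markers KRT7 (452 to 1930 CPM), KRT8, and KRT18 (1780 to 2920 CPM) were high in every other library of both lines, and NKX2-1 was present (31.9 to 98.8 CPM). The KRT7 mean was lower in vehicle-treated H1975–OR (525.5 CPM) than in H1975 (1458 CPM). NAPSA stood at no more than 2.25 CPM, and EPCAM at 74.9 to 207 CPM in H1975 and at 1.17 to 12.7 CPM in H1975–OR. KRT19 (1030 to 1230 CPM in H1975 and 97.9 to 614 in H1975–OR) and CDH1 (108 to 383 and 2.45 to 151) were also lower in H1975–OR with vehicle. CDH1 rose with 1,25(OH)2D3 (log2 fold change 4.22, adjusted p = 0.024 by edgeR). Of the 7 epithelial markers tested there, 4 had a positive fold change and 3 a negative one, with EPCAM means of 11.6 CPM with vehicle and 7.37 CPM with 1,25(OH)2D3. Of the 3 mesenchymal markers tested, 2 were positive and 1 negative, with FN1 means of 56.1 and 145 CPM. Of the mesenchymal markers VIM stood at 2200 to 4800 CPM over both lines and CDH2 at no more than 2.11 CPM, FN1 was lower in H1975–OR with vehicle (log2 fold change −3.65, adjusted p = 0.000151 by edgeR), and ZEB1 was higher (log2 fold change 3.02, adjusted p = 0.0318 by edgeR). The part of these differences in the results on the members was not tested. Of the markers of other cells, PTPRC, PECAM1, and ALB stood at no more than 2.12, 4.19, and 0.557 CPM.

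Of the 7 genes, 6 passed the filter on low counts in the fit with H1975, used for H1975–OR against H1975 and 1,25(OH)2D3 against vehicle. In the fit of H1975–OR libraries alone, used for the comparisons with osimertinib, 5 passed. CYP27B1 was too low in each. CYP27A1 passed only in the fit with H1975, the group where its counts were highest, and was too low in the other. The test was the quasi-likelihood test of edgeR over all genes, with Benjamini-Hochberg adjusted p-values and a threshold of 0.05. CYP24A1 was the only member that passed it in any of the 8 comparisons. Where groups or libraries are said not to overlap, the share of all genes separated in that way was not counted. Such statements describe the values and are not tests. The comparisons of H1975–OR with H1975, of 1,25(OH)2D3 with vehicle, and of osimertinib with vehicle share the vehicle-treated H1975–OR libraries.

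**Figure D1:**
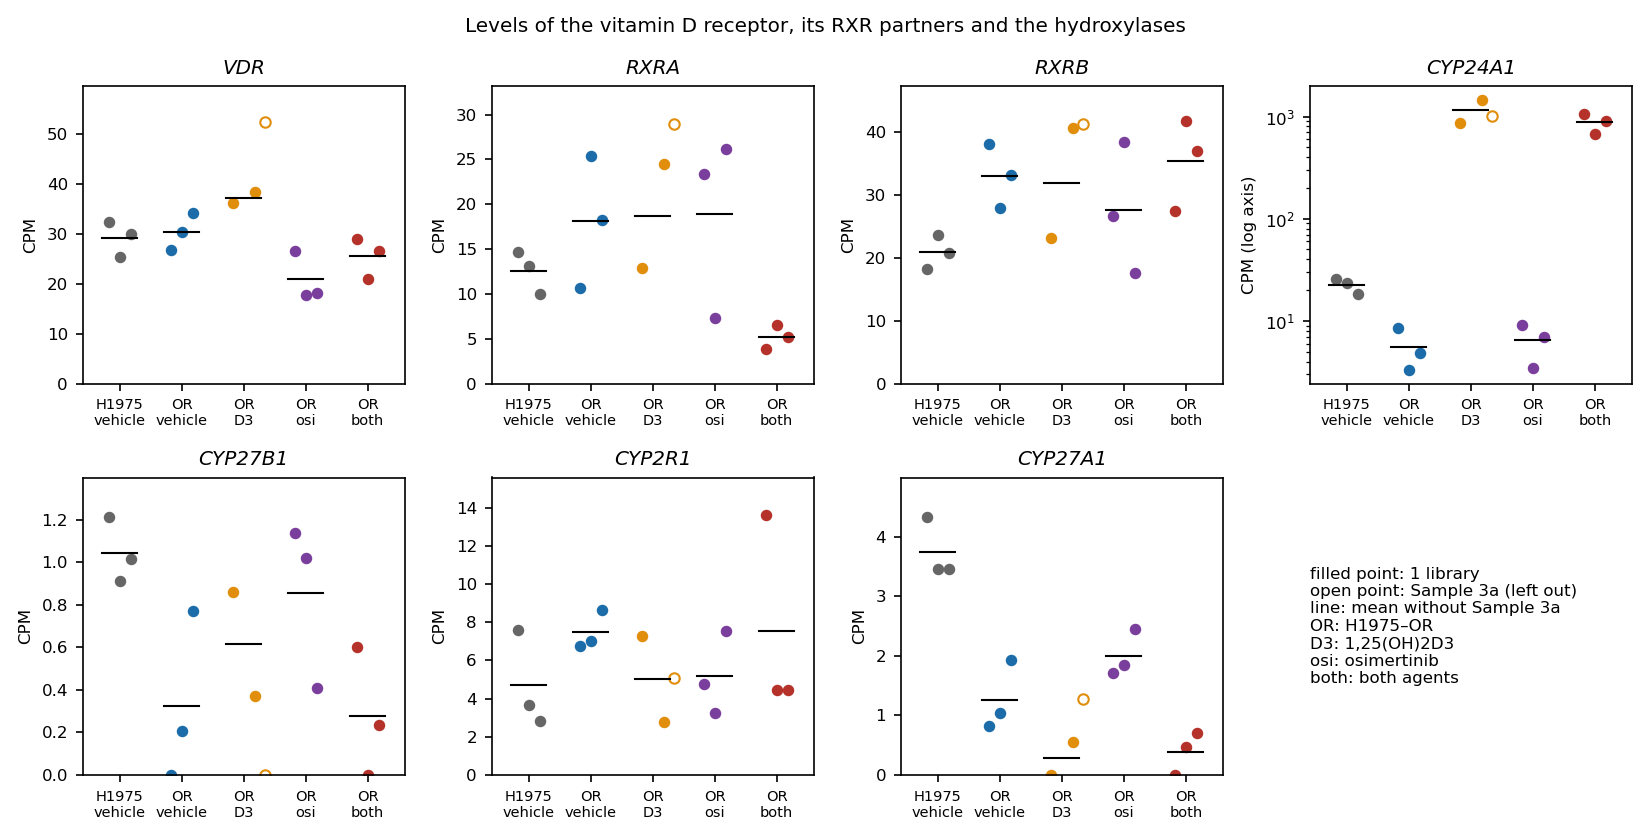
CPM of each of the 7 genes in each library, by group, on a linear axis from 0 except for CYP24A1, which is on a log axis. Filled points are libraries, the open point is Sample 3a, and lines are means without it. CYP24A1 stood at 676 CPM or more in every library given 1,25(OH)2D3 and at 25.6 CPM or less in every other one.

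CYP24A1 was the member that set the groups apart. In H1975 it stood at 25.6, 23.5, and 18.3 CPM in Samples 1a, 1b, and 1c, and in vehicle-treated H1975–OR at 8.58, 3.31, and 4.81 CPM. Every H1975–OR vehicle library lay below every H1975 library. The means were 22.5 ± 3.76 CPM (SD, n = 3) and 5.57 ± 2.72 CPM (SD, n = 3), and CYP24A1 was 3.99-fold lower in H1975–OR, with a log2 fold change of −1.997 (95% confidence interval −2.78 to −1.22, standard error 0.34, adjusted p = 0.00554 by edgeR). In bulk RNA, fewer cells that express a gene and less RNA per cell cannot be told apart. Of all genes tested in this comparison 20.1% passed the threshold, and of the 6 members tested 1 did. The 5 others had log2 fold changes between −1.54 and 0.68.

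With 1,25(OH)2D3 alone, CYP24A1 rose to 868 CPM in Sample 3b and 1468 CPM in Sample 3c, a mean of 1168 ± 424 CPM (SD, n = 2) against 5.57 CPM with vehicle. The counts behind these levels were 4048 and 7912, against 42, 16, and 25 in the vehicle libraries. The groups were far from overlapping. The log2 fold change was 7.71 (95% confidence interval 6.84 to 8.58, standard error 0.38, adjusted p = 0.000183 by edgeR), or 209-fold. Of the 12513 genes tested, 0.152% passed, CYP24A1 had the smallest p of all (rank 1), and 3 genes had a larger fold change. Sample 3a, which was not used here, had 6427 counts of CYP24A1, and with it kept in the log2 fold change was 7.65.

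In H1975–OR cells under osimertinib, CYP24A1 stood at 9.12, 3.48, and 6.94 CPM in Samples 4a, 4b, and 4c. With both agents it stood at 1063, 676, and 914 CPM in Samples 5a, 5b, and 5c, a mean of 884.2 ± 195 CPM (SD, n = 3). It was thus higher in 3 of 3 libraries. The log2 fold change was 7.06 (95% confidence interval 6.09 to 8.04, standard error 0.44, adjusted p = 0.000159 by edgeR), or 134-fold. Of all genes, 0.096% passed in this comparison, and 0 of the other 4 members tested did. Libraries of the same letter deviated together here, and with the letter as a block the number of genes called rose from 12 to 33, while CYP24A1 remained the one member called.

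No effect of osimertinib on CYP24A1 was detectable. Against vehicle its log2 fold change was 0.24 (95% confidence interval −0.73 to 1.21), where 0.048% of all genes passed, or 6 genes (35 with the letter as a block). Against 1,25(OH)2D3 alone, both agents gave a log2 fold change of −0.41 (95% confidence interval −1.21 to 0.39), where 0.256% of genes passed. The change in the 1,25(OH)2D3 effect under osimertinib was −0.65 (95% confidence interval −1.90 to 0.61, adjusted p = 1 by edgeR), so that the ratio of the inductions with and without osimertinib lay between 0.267 and 1.53. No gene passed in that comparison (0%, 0 of 12503 by edgeR), with 153 genes higher and 177 lower at an unadjusted p under 0.05, and 11 called by DESeq2. Averaged over both osimertinib states, 1,25(OH)2D3 raised CYP24A1 by 7.39 on the log2 scale (95% confidence interval 6.68 to 8.10, adjusted p = 4.02e-06 by edgeR), the largest of the 12503 fold changes, where 0.368% of genes passed. The plot of fold changes shows that no other member came near it.

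**Figure D2:**
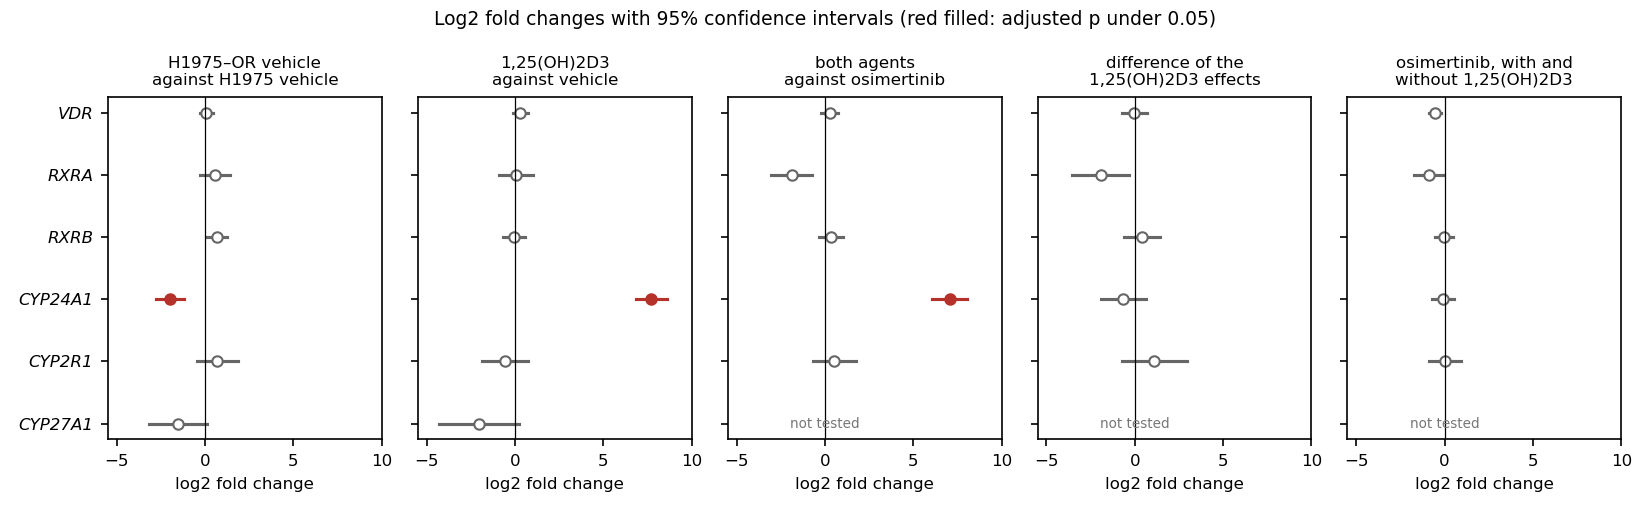
Log2 fold changes (points) and their 95% confidence intervals (lines) of the 6 genes tested in at least 1 of 5 comparisons, from edgeR. Red filled points passed an adjusted p of 0.05, and only CYP24A1 did, at −1.997, 7.71, and 7.06.

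VDR, which encodes the receptor itself, was present in every library. It stood at 32.4, 25.3, and 29.9 CPM in H1975 and at 26.8, 30.4, and 34.1 CPM in vehicle-treated H1975–OR. These ranges overlapped, and the log2 fold change between the lines was 0.07 (95% confidence interval −0.31 to 0.46, adjusted p = 0.794 by edgeR), a ratio between 0.805 and 1.38. The values under 1,25(OH)2D3 were 36.0 and 38.4 CPM, both above every vehicle library, with a log2 fold change of 0.29 (95% confidence interval −0.14 to 0.72, adjusted p = 0.808 by edgeR). Sample 3a, at 52.4 CPM, was higher still, and with it the value was 0.48.

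With osimertinib, VDR stood at 26.6, 17.8, and 18.2 CPM, and with both agents at 28.8, 20.9, and 26.6 CPM. Samples 4a and 5a, both of letter a, were the highest of their groups. The log2 fold change of osimertinib against vehicle was −0.54 (95% confidence interval −1.01 to −0.07, adjusted p = 0.577 by edgeR), and that of both agents against 1,25(OH)2D3 was −0.55 (95% confidence interval −1.07 to −0.04, adjusted p = 0.393 by edgeR). In each of these 2 comparisons the groups did not overlap, although the gap between Sample 4a and the lowest vehicle library was small. How many of all genes were separated likewise was not counted. Averaged over both 1,25(OH)2D3 states, the osimertinib effect on VDR was −0.55 (95% confidence interval −0.89 to −0.20, adjusted p = 0.115 by edgeR), where 2.04% of all genes passed. VDR did pass with DESeq2 (adjusted p = 0.0446), with the letter as a block (adjusted p = 0.047), and, in a setting chosen after seeing the data, without the letter a libraries of H1975–OR (adjusted p = 0.0259). Its value lay between −0.75 and −0.48 over these settings and the others tried. The levels in order were 1,25(OH)2D3 (37.2 ± 1.68 CPM, SD, n = 2), vehicle-treated H1975–OR (30.4 ± 3.66, n = 3), H1975 (29.2 ± 3.57, n = 3), both agents (25.4 ± 4.10, n = 3), and osimertinib (20.9 ± 4.98, n = 3), and only the first pair of neighbours did not overlap.

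RXRA encodes an RXR partner of VDR. It stood at 14.7, 13.1, and 9.96 CPM in H1975, at 10.6, 25.4, and 18.3 CPM in vehicle-treated H1975–OR, at 12.9 and 24.5 CPM with 1,25(OH)2D3, and at 23.4, 7.36, and 26.1 CPM with osimertinib. With both agents it stood at 3.81, 6.57, and 5.18 CPM, from 19, 28, and 22 counts, and each of these libraries lay below each of the other 12. The mean of 5.19 ± 1.38 CPM (SD, n = 3) compares with 19.0 ± 10.1 CPM (SD, n = 3) under osimertinib, where Sample 4b alone, with 36 counts, lay close. The log2 fold change was −1.88 (95% confidence interval −3.02 to −0.74, adjusted p = 0.621 by edgeR), and against 1,25(OH)2D3 alone it was −1.86 (95% confidence interval −3.09 to −0.63, adjusted p = 0.22 by edgeR). Neither passed the threshold over all genes. The adjusted p of the first ranged from 0.0816 to 1 over the alternatives and that of the second from 0.0595 to 0.825. The change in the 1,25(OH)2D3 effect under osimertinib was −1.93 (95% confidence interval −3.56 to −0.30, adjusted p = 1 by edgeR). Between the lines RXRA had a log2 fold change of 0.54 (95% confidence interval −0.32 to 1.39), and with 1,25(OH)2D3 alone one of 0.05 (−0.89 to 0.99).

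RXRB, the second RXR partner, had its lowest group mean in H1975, with 18.2, 23.7, and 20.7 CPM, against 38.0, 27.9, and 33.1 CPM in vehicle-treated H1975–OR. Every vehicle-treated H1975–OR library lay above every H1975 library. The log2 fold change was 0.68 (95% confidence interval 0.12 to 1.23, adjusted p = 0.0844 by edgeR), which did not pass the threshold, and the adjusted p lay between 0.0582 and 0.199 over the alternatives. In the treated groups RXRB stood at 23.2 and 40.7 CPM with 1,25(OH)2D3, at 26.6, 38.4, and 17.6 CPM with osimertinib, and at 27.4, 41.8, and 37.0 CPM with both agents. The ranges of all neighbours in the order of group means overlapped. Its log2 fold change with 1,25(OH)2D3 was −0.05 (95% confidence interval −0.66 to 0.57) without osimertinib and 0.35 (−0.34 to 1.04) with it. RXRG, the third RXR gene, had 0 counts in all 15 libraries, which allows up to 3 counts in each.

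The enzymes that make 1,25(OH)2D3 were all low. CYP2R1, a vitamin D 25-hydroxylase, stood between 2.78 and 13.6 CPM over the 14 libraries, the highest being Sample 5a with 68 counts and the lowest Sample 3c with 15. The group means ran from 4.70 ± 2.55 CPM (SD, n = 3) in H1975 to 7.52 ± 5.28 CPM (SD, n = 3) with both agents, and all neighbours overlapped. Its log2 fold changes were 0.68 (95% confidence interval −0.48 to 1.84) between the lines, −0.57 (−1.89 to 0.74) with 1,25(OH)2D3, and −0.52 (−1.74 to 0.70) with osimertinib. Each of these intervals for CYP2R1 includes 0.

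CYP27A1, a sterol hydroxylase of bile acid synthesis that can also act on vitamin D, was measured from few reads. It had 25, 19, and 17 counts in H1975, or 4.33, 3.46, and 3.46 CPM, and 4, 5, and 10 counts in vehicle-treated H1975–OR. The 2 lines did not overlap, and the log2 fold change was −1.54 (95% confidence interval −3.16 to 0.08, adjusted p = 0.163 by edgeR). With 1,25(OH)2D3 it had 0 and 3 counts in Samples 3b and 3c and 8 in Sample 3a, and with both agents 0, 2, and 3, against 9, 9, and 12 with osimertinib alone. Counts with 1,25(OH)2D3 were below those without it in both osimertinib states, other than in Sample 3a. The log2 fold change of 1,25(OH)2D3 against vehicle was −2.03 (95% confidence interval −4.29 to 0.24, adjusted p = 0.723 by edgeR), and −0.96 with Sample 3a kept in. Counts of 3 or fewer are at the floor, and the fitted value rests on them. CYP27A1 passed the filter on low counts through H1975, where it was highest, and was too low in the fit of H1975–OR libraries alone. Its tests between the lines and with 1,25(OH)2D3 carry that limit.

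CYP27B1, the 1-alpha-hydroxylase that forms the active hormone, had between 0 and 7 counts in every library. These were 7, 5, and 5 in H1975, 0, 1, and 4 in vehicle-treated H1975–OR, 4 and 2 with 1,25(OH)2D3, 6, 5, and 2 with osimertinib, and 3, 0, and 1 with both agents. The H1975 and vehicle-treated H1975–OR libraries did not overlap. Its highest group mean was 1.05 ± 0.153 CPM (SD, n = 3), in H1975. The filter on low counts left CYP27B1 out of the tests, and without that filter its log2 fold change between the lines was −1.58 (adjusted p = 0.394 by edgeR), with 3 counts or fewer in some libraries.

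Levels of different genes were compared after division by the length of the canonical transcript, available for 18352 of the 19612 symbols (93.6%). On that scale RXRB stood above VDR and VDR above RXRA in the mean of every group. Which transcripts these cells expressed was not determined, and the counts of RXRB, VDR, and RXRA are less certain for their overlapping exons. The order of genes is thus a description that depends on the lengths used. In vehicle-treated H1975–OR the levels were 11.4 ± 1.75 CPM per kb (SD, n = 3) for RXRB, 6.59 ± 0.792 for VDR, 3.38 ± 0.469 for CYP2R1, 3.27 ± 1.33 for RXRA, 1.70 ± 0.829 for CYP24A1, 0.664 ± 0.310 for CYP27A1, and 0.137 ± 0.168 for CYP27B1. In H1975, RXRB (7.23 ± 0.954), CYP24A1 (6.85 ± 1.15), and VDR (6.32 ± 0.774) had overlapping ranges of mean ± SD. CYP24A1 ranked 6600 of 18352 genes in H1975 and 9746 in vehicle-treated H1975–OR. With 1,25(OH)2D3 it stood at 356 ± 129 CPM per kb (SD, n = 2) and ranked 163, and with both agents at 269.7 ± 59.6 (SD, n = 3) and ranked 188. VDR ranked between 6036 and 7789 in all 5 groups.

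**Figure D3:**
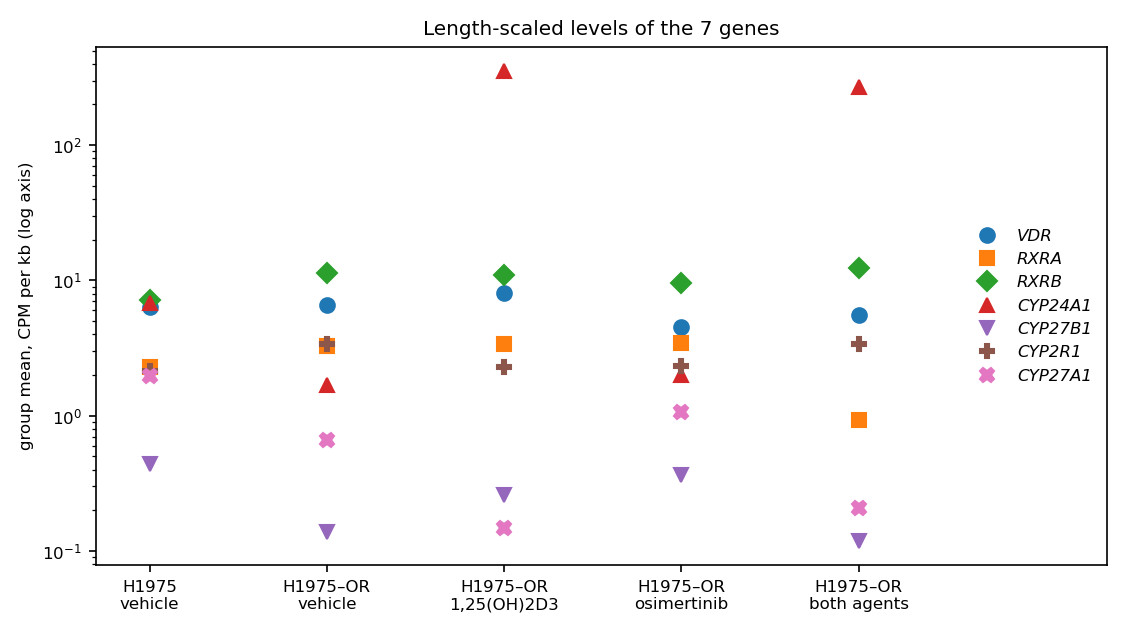
Group means of the 7 genes in CPM per kb of canonical transcript, on a log axis, one marker shape per gene. CYP24A1 moves from 1.70 in vehicle-treated H1975–OR to 356 with 1,25(OH)2D3, while VDR stays between 4.52 and 8.07 in all groups.

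The genes whose levels followed each member most closely were found by Pearson correlation of log2(CPM + 2) over the 14 libraries, which fall into 5 groups, and are given as a description. For CYP24A1 they were COL1A1, a chain of type I collagen (r = 0.935), CRIP1 (r = 0.929), and SEMA3B, a secreted semaphorin (r = 0.919). COL1A1 stood at 9.50 CPM in vehicle-treated H1975–OR, at 126 CPM with 1,25(OH)2D3, and at 104 CPM with both agents, with 21.0 CPM in H1975. For VDR they were TMEM147 (r = 0.895), TSR1, which takes part in ribosome assembly (r = 0.882), and SERPINB8 (r = 0.866). For RXRA they were MEA1 (r = 0.844), TMEM135 (r = 0.824), and RRP36 (r = 0.819), and TMEM135 likewise had its lowest mean with both agents, 13.3 CPM against 22.9 to 25.8 CPM in the other groups. For RXRB they were VPS33A (r = 0.842), WHAMM (r = 0.832), and SHPRH (r = 0.798), and for CYP2R1 FBLN1 (r = 0.847), PIGBOS1 (r = 0.829), and CERS5 (r = 0.788). For CYP27A1, which had 0 to 25 counts per library, they were UBE2C, a ubiquitin-conjugating enzyme of mitosis (r = 0.948), HLA-DRA (r = 0.932), and HIST1H4L (r = 0.915). With a pseudocount of 0.5, those of CYP27A1 were HLA-DRA (r = 0.93), DZIP1L (r = 0.913), and UBE2C (r = 0.912). The third gene for VDR was then CD274 (r = 0.867) in place of SERPINB8, and the other members kept their genes. UBE2C stood at 149 CPM in H1975, 54.0 CPM in vehicle-treated H1975–OR, and 27.6 CPM with 1,25(OH)2D3.

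Around the members, 12 other genes of vitamin D metabolism and transport were listed, of which 7 were tested. Between the lines POR, the reductase that feeds electrons to microsomal P450 enzymes such as CYP2R1, was the 1 gene called of 7, where 20.1% of all genes passed. Its mean fell from 135.3 ± 12.0 CPM in the 3 H1975 libraries to 55.1 ± 14.9 CPM (SD) in vehicle-treated H1975–OR, 2.42-fold lower (log2 fold change −1.28, adjusted p = 0.00372 by edgeR). PDIA3, DHCR7, and FDXR, the genes with the next smallest p, passed no test. In the other 7 comparisons 0 of the 7 tested genes passed. Of the 5 genes not tested, GC, CYP3A5, and RXRG had 0 counts in every library, and CYP11A1 and LRP2 had at most 6. CYP3A4, a P450 enzyme with many substrates, is named after its values were seen. It had 13 and 17 counts in Samples 3b and 3c and at most 2 in every other library, Sample 3a and those given both agents included, and its log2 fold change with 1,25(OH)2D3 was 4.25 (adjusted p = 0.332 by edgeR).

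All 16 listed coregulators of VDR were tested. Between the lines NRIP1, a corepressor of nuclear receptors (log2 fold change −0.67, adjusted p = 0.00878 by edgeR), and BAZ1B, part of a chromatin remodelling complex (log2 fold change −0.43, adjusted p = 0.0141 by edgeR), were lower in H1975–OR, and 0 were higher, so that 2 of 16 passed where 20.1% of all genes did. Without Sample 2b BAZ1B did not pass. The median over the list was −0.15, against 0.01 over all genes. In the other 7 comparisons 0 of 16 passed. HR, which encodes the hairless corepressor, had a log2 fold change of 1.06 with 1,25(OH)2D3 averaged over both osimertinib states (adjusted p = 0.178 by edgeR), and SNW1 one of −3.02 with both agents against osimertinib (adjusted p = 0.452 by edgeR).

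Of the 15 listed receptors that share RXR as a partner, 12 were tested. RARB, a retinoic acid receptor, had 4, 3, and 2 counts in H1975 and 117, 250, and 236 in vehicle-treated H1975–OR (log2 fold change 6.14, 95% confidence interval 5.13 to 7.15, adjusted p = 0.000151 by edgeR). The H1975 counts lay at or near the floor of 3, so the size of this fold change is uncertain. RARB passed the filter on low counts through the H1975–OR libraries, where it was high. RARG, another retinoic acid receptor, was lower in H1975–OR, with 56.7, 57.0, and 77.4 CPM in H1975 against 16.4, 17.4, and 19.1 CPM (log2 fold change −1.84, adjusted p = 0.000515 by edgeR). These 2 of 12 were the calls between the lines, where 20.1% of all genes passed, and no library of one line overlapped the other for either gene. PPARG, a receptor of fat cell differentiation, was the 1 gene of 12 called for osimertinib averaged over both 1,25(OH)2D3 states, where 2.04% of all genes passed, 2.99-fold lower (log2 fold change −1.58, adjusted p = 0.0275 by edgeR), with means of 39.4 CPM with vehicle, 48.4 CPM with 1,25(OH)2D3, 13.5 CPM with osimertinib, and 15.7 CPM with both agents. Sample 3a, not used in these values, stood at 6.67 CPM of PPARG, and with it kept in 0 of the list passed. PPARG did not pass without Sample 2b, 2c, 3b, 3c, 4c, 5b, or 5c either (adjusted p up to 0.132 by edgeR), while with the letter as a block 2 of the list passed, PPARG and RARB. RARA had a log2 fold change of 0.87 with 1,25(OH)2D3 (adjusted p = 0.502 by edgeR). In the other 6 comparisons 0 of 12 passed.

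Of 26 genes listed from general knowledge as targets of 1,25(OH)2D3, CYP24A1 not among them, 20 were tested with 1,25(OH)2D3 alone and 21 with osimertinib present. The list was written with earlier results of these libraries known and is not independent of them. CYP3A4 is on this list and on that of metabolism and transport, with 13 and 17 counts in Samples 3b and 3c and at most 2 elsewhere. BGLAP had at most 4 counts in H1975–OR without 1,25(OH)2D3 and 7 to 55 with it, Sample 3a aside. Both passed the filter through libraries given 1,25(OH)2D3. In the fit of H1975–OR libraries alone KLK6 did so too. It had at most 6 counts there without 1,25(OH)2D3 and 25 to 43 in Samples 3b and 3c. The numbers of positive fold changes are thus not free of that filter. For 1,25(OH)2D3 alone 17 of 20 had a positive fold change, the median was 0.81 against −0.01 over all genes, and 0 passed the threshold. With osimertinib present 17 of 21 were positive, the median was 0.87 against 0.00, and 0 passed. With the letter as a block 2 passed there (IGFBP3 and SERPINB1), where 33 of all genes did. Averaged over both states 18 of 21 were positive and the median was 0.93. With the letter as a block 7 passed for that average, where 168 of all genes did. Without the block 2 passed, where 46 of all genes did, or 0.368%. The 2 were SEMA3B, whose product is a secreted guidance protein (log2 fold change 1.49, 95% confidence interval 1.103 to 1.88, adjusted p = 0.00781 by edgeR), and CLMN, which encodes calmin (log2 fold change 1.27, 95% confidence interval 0.81 to 1.74, adjusted p = 0.0349 by edgeR). SEMA3B passed without any 1 of the 11 libraries, and CLMN did not without Sample 2a, 2b, 2c, 3b, 3c, 4a, 4b, or 4c (adjusted p up to 0.157 by edgeR).

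SEMA3B stood at 28.8, 13.4, and 21.8 CPM with vehicle and 87.5 and 71.5 CPM with 1,25(OH)2D3, and at 33.1, 27.8, and 29.6 CPM with osimertinib and 62.1, 60.8, and 70.9 CPM with both agents. CLMN stood at 13.1, 11.6, and 10.0 CPM with vehicle and 31.3 and 29.9 CPM with 1,25(OH)2D3, and at 12.4, 15.3, and 20.2 CPM with osimertinib and 29.0, 51.4, and 26.2 CPM with both agents. For both genes, every library given 1,25(OH)2D3 lay above every H1975–OR library without it. IGFBP3, which encodes a binding protein of insulin-like growth factors, had a log2 fold change of 1.95 in the average over both states and did not pass (adjusted p = 0.0585 by edgeR). In the plot of target genes CYP24A1 had the largest fold change in both states, while the interval of KLK6 with osimertinib present ran past it. KLK6 was named after its values were seen, and it had 0 counts in Samples 4a to 4c and 30, 0, and 0 in Samples 5a to 5c.

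**Figure D4:**
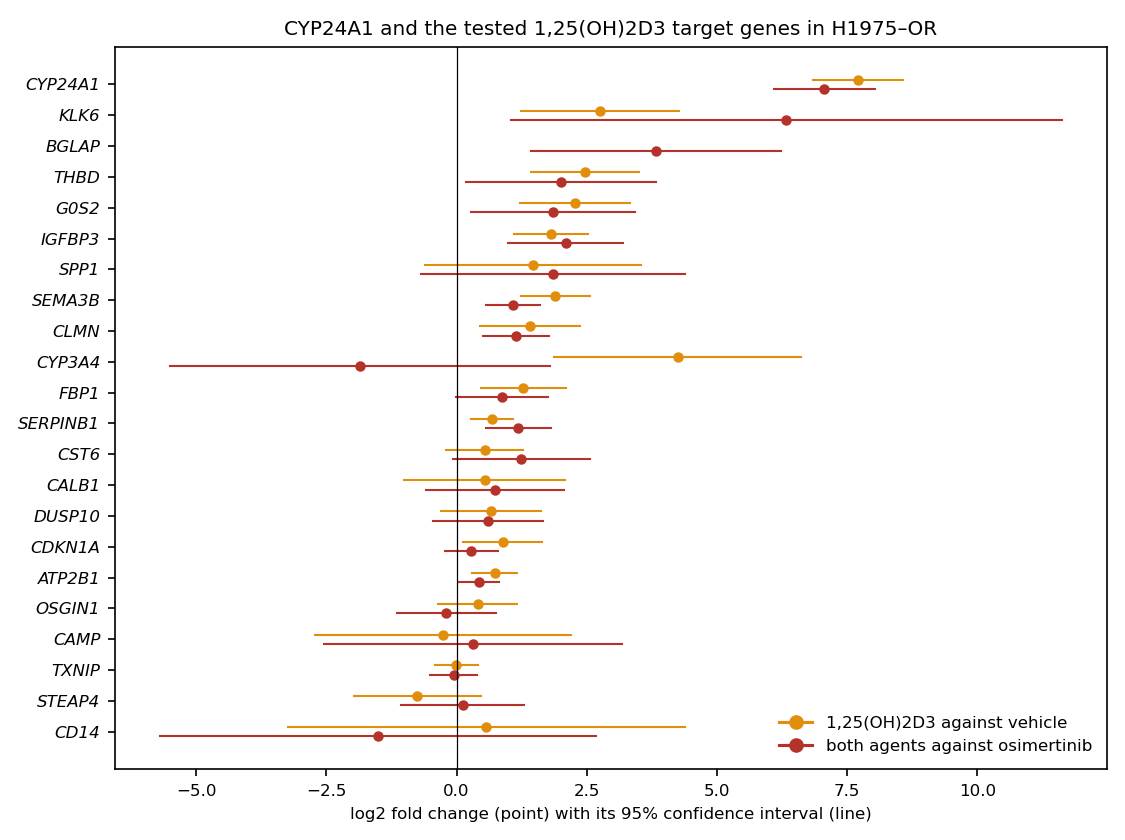
Log2 fold changes with 1,25(OH)2D3 without osimertinib (orange) and with it (red) for CYP24A1 and the target genes tested in either comparison, with 95% confidence intervals as lines. BGLAP was tested only with osimertinib present. CYP24A1 lies at 7.71 and 7.06, and 17 of 20 and 17 of 21 target genes lie above 0.

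Between the lines, without any added hormone, 2 of the 20 tested target genes were higher and 6 lower in H1975–OR, with a median of −0.74, where 20.1% of all genes passed (1237 higher and 1284 lower). The number called fell from 8 to 2 without Sample 1c or 2b and to 3 without Sample 1b or 2c, and CLMN and FBP1 passed with each library left out. CAMP, which encodes an antimicrobial peptide, had 0 counts in every H1975 library and 2, 17, and 33 in vehicle-treated H1975–OR, and its mean was at least 5.90-fold higher when H1975 is put at the floor of 3 counts per library, or at least 3.38-fold without Sample 2c, while Sample 2a itself was below the floor. TXNIP was 1.55-fold higher (adjusted p = 0.0279 by edgeR). CLMN was 5.36-fold lower, SPP1 8.35-fold, G0S2 3.33-fold, FBP1 2.83-fold, DUSP10 2.65-fold, and IGFBP3 2.29-fold, with adjusted p between 0.00435 and 0.0343 by edgeR. Without Sample 2a, SPP1 was 25.3-fold and DUSP10 4.25-fold lower. CYP24A1 itself, at 3.99-fold lower, moved in the same direction as these 6 genes. With osimertinib, averaged over both 1,25(OH)2D3 states, ATP2B1, a calcium pump of the cell membrane, was 2.07-fold lower (adjusted p = 0.00523 by edgeR) and G0S2 4.79-fold lower (adjusted p = 0.0499 by edgeR), or 2 of 21 where 2.04% of all genes passed. With Sample 3a kept in 0 of the list passed, with the letter as a block 4 did, and G0S2 passed without Sample 2a or 5a and in no other case of 1 library left out. ATP2B1 was also lower with both agents than with 1,25(OH)2D3 alone (log2 fold change −1.20, adjusted p = 0.0402 by edgeR), although with any 1 library of the 2 groups left out it did not pass. In the remaining comparisons of osimertinib with vehicle and of the change in the 1,25(OH)2D3 effect under osimertinib 0 of 21 passed.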

How the data were processed

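The processed data are one table of 15 RNA sequencing libraries. Per the labels and the study's methods, total RNA libraries made with a stranded kit were sequenced as paired ends, and the authors quantified them on hg38 with Kallisto, followed by gene-level summing in tximport. The deposited values are these estimated counts, not scaled for library size or length. Kallisto divides a read among the transcripts it fits, so counts of overlapping genes can be divided between them. The submitters' processing notes also name CASAVA 1.8.2, STAR 2.5.2b, kallisto 0.43.0, and GRCh38. The annotation, strand setting, and tximport settings are not given in the sources used here.

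After rounding to integers, edgeR 4.0.16 (under R 4.3.3) was run with TMM scaling, filterByExpr (minimum count 10, minimum total 15), and the quasi-likelihood test. One fit held the 8 libraries of groups 1, 2, and 3 (12513 genes) and another the 11 H1975–OR libraries (12503 genes), both without Sample 3a, and p-values were adjusted over all genes of a fit. Effects averaged over the other agent came from the second fit. Confidence intervals are 95%. Replicate libraries differed by 9.12 to 60.2 times the sampling noise (chi-square per degree of freedom), and none was counted as a repeat. Between osimertinib and vehicle, libraries of the same letter had correlated deviations (0.31, 0.124, and 0.197). They did so between both agents and osimertinib too (0.464, 0.276, and 0.258). A pairing by letter is seen in the data only, since the labels do not say what a letter shares. The main tests held no term for the letter, so their p-values and intervals do not use this pairing. With the letter as a block, the genes called went from 6 to 35 for osimertinib against vehicle. They went from 12 to 33 for both agents against osimertinib, and from 255 to 931 for the averaged osimertinib effect. Between the lines the correlations were −0.03 to 0.022. Coordinates and lengths came from the GENCODE annotation of GRCh38. The test was tried on simulated counts first.

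The members and lists were chosen with earlier results of these data known. Named genes are the 7 members, the listed genes called in a comparison (and, where fewer than 4 were, those with the smallest p up to 4), and for each member the 3 genes with the highest correlation among those with a mean of at least 5 CPM. The alternatives tried were the replicate letter as a block, a single fit of 14 libraries, fits of the compared groups alone, the return of Sample 3a, removal of each library in turn, DESeq2 1.42.0, scaling by RLE, a filter of 10 counts in all libraries or none, and, for correlations, a pseudocount of 0.5.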

Additional observations from a re-analysis of the deposited data

Results flagged for a closer look

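Sample 3a, the 1,25(OH)2D3 library left out of the main tests and means, was looked at on its own. CYP24A1, VDR, RXRA, and RXRB stood above every vehicle-treated H1975–OR library in it, and CYP27B1, CYP2R1, and CYP27A1 did not. The share of all genes that stood above them in Sample 3a was not counted, so nothing is drawn from this number of members. CYP24A1 stood at 1021 CPM, within the 868 to 1468 CPM of Samples 3b and 3c, against at most 8.58 CPM with vehicle. VDR stood at 52.41 CPM, above both of those libraries (36.0 and 38.4 CPM) and above the vehicle libraries (at most 34.1 CPM). RXRA stood at 28.91 CPM and RXRB at 41.29 CPM, where the highest vehicle libraries had 25.4 and 38.0 CPM. Sample 3a also had the largest total of all libraries, 6140120 counts, and the part of its other differences from Samples 3b and 3c in these levels was not tested.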

How the results depend on the processing

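The calls of CYP24A1 held under every alternative, with log2 fold changes of −2.46 to −1.74 between the lines, 7.28 to 8.16 with 1,25(OH)2D3, and 6.76 to 7.39 with both agents against osimertinib. The number of the 7 genes called moved only for osimertinib averaged over both 1,25(OH)2D3 states, from 0 to 1 (VDR) with DESeq2, to 1 with the replicate block, and to 1 without the letter a libraries of H1975–OR, a setting chosen after seeing the data. For no member did the log2 fold change turn in sign and pass the threshold. The cause of these moves was not tested.

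With DESeq2 the target genes called came to 4 with 1,25(OH)2D3, 1 with osimertinib, 3 with both agents against osimertinib, 3 with both agents against 1,25(OH)2D3, 8 for the averaged 1,25(OH)2D3 effect, and 4 for the averaged osimertinib effect. DESeq2 also called 1 RXR partner receptor with osimertinib and 1 with both agents against 1,25(OH)2D3, and 1 coregulator with both agents against osimertinib and 2 for the averaged 1,25(OH)2D3 effect. With the replicate block 2 genes of metabolism and transport were called between the lines, target genes came to 2 with both agents against osimertinib, 7 for the averaged 1,25(OH)2D3 effect, and 4 for the averaged osimertinib effect, and RXR partners to 1 with both agents against 1,25(OH)2D3 and 2 for the averaged osimertinib effect. With 1,25(OH)2D3 alone, target genes came to 2 without a filter, 1 with at least 10 counts in every library, 1 with Sample 3a kept in, and 1 with all 14 libraries in one fit. The stricter filter left 1 RXR partner between the lines and 1 target gene for the averaged osimertinib effect. With Sample 3a kept in, target genes came to 0 with both agents against 1,25(OH)2D3 and, for the averaged osimertinib effect, to 0, with 0 RXR partners. With the compared groups alone, target genes came to 0 with both agents against 1,25(OH)2D3. Without the letter a libraries there were 2 metabolism genes between the lines, 2 target genes with 1,25(OH)2D3, 2 with both agents against it, and 4 for the averaged osimertinib effect, and RXR partners came to 1 and 2 in the latter pair.

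Leaving out each library in turn gave, between the lines, 1 to 2 metabolism genes, 1 to 3 coregulators, and 2 to 10 target genes. Target genes ranged from 0 to 2 with 1,25(OH)2D3, from 0 to 1 with osimertinib, from 1 to 4 for the averaged 1,25(OH)2D3 effect, and from 1 to 3 for the averaged osimertinib effect, and were 0 in each case with both agents against 1,25(OH)2D3. Coregulators ranged from 0 to 1 for the averaged 1,25(OH)2D3 effect and RXR partners from 0 to 1 for that of osimertinib.

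Counts over all genes depended on the setting. With 1,25(OH)2D3 alone they were 19, 123 with DESeq2, 32 without a filter, 29 with the stricter filter, 29 with 14 libraries, 9 with the block, 9 with the compared groups alone, and 5 without Sample 3c. With osimertinib they were 6, 116 with DESeq2, 35 with the block, 12 with 14 libraries, and 2 with the compared groups alone. With both agents against osimertinib they were 12, 63 with DESeq2, 33 with the block, 5 with Sample 3a, and 2 with the compared groups alone. With both agents against 1,25(OH)2D3 they were 32, 319 with DESeq2, 183 with the block, 71 with 14 libraries, 12 with Sample 3a, 9 with the compared groups alone, and 0 without Sample 3c. The averaged effects gave 46 and 255, with 198 and 732 in DESeq2 and 168 and 931 with the block, and osimertinib gave 98 with Sample 3a. Between the lines they were 2521, 1636 with Sample 3a, and 1426 without Sample 1b. With each library left out in turn, osimertinib gave 1 (without Sample 2b) to 29, both agents against osimertinib 3 (without Sample 4a) to 9, the averaged 1,25(OH)2D3 effect 11 (without Sample 3c) to 46, and the averaged osimertinib effect 24 (without Sample 3c) to 471. The low counts of CYP27B1 and CYP27A1 limit what can be said of them.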
